A study of Mus musculus with 59 samples.

Results

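Potassium channel genes, here all rows of the deposited count table whose Ensembl ID carries a mouse symbol beginning with Kcn, were described across 3 brain regions and 2 treatments. There were 94 of them among the table's 21935 rows, all protein coding and all with counts in at least some library. C57BL/6 mice were injected intraperitoneally with IP118/PY115 or with vehicle, and brains were taken after 4 h. Laser capture then took 4 mm² of tissue from 10 µm sections of the paraventricular nucleus (PVN) and the arcuate nucleus (ARC), both in the hypothalamus, and of the nucleus of the solitary tract (NTS), which lies in the brainstem. The groups were IP118/PY115 PVN (10 libraries), vehicle PVN (10), IP118/PY115 ARC (10), vehicle ARC (9), IP118/PY115 NTS (10) and vehicle NTS (10). The series title speaks of obese-diabetic mice and of a PYY/GLP-1 receptor co-agonism, whereas the sample labels give neither diet, age nor sex, and the dose is not given either.

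Potassium channels let K+ leave or enter cells along its gradient and so set resting potential, spike shape and firing rate. Voltage-gated subunits open on depolarisation, inward rectifiers and 2-pore channels hold the resting potential, and calcium- or sodium-activated channels follow activity inside the cell. Modifier subunits form no channel alone but alter the pore subunits they join, and auxiliary subunits change gating or traffic. In the hypothalamus, ATP-sensitive potassium channels are known for coupling glucose to neuronal firing, and G protein-gated inward rectifiers for carrying the inhibition evoked by peptides and transmitters.

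By class, the family comprised 30 voltage-gated pore subunits, 10 modifier subunits, 16 auxiliary subunits, 15 inward rectifiers, 14 2-pore leak channels, 8 calcium- and sodium-activated channels and Kcnrg, a regulator that is not itself a channel. Library totals ran from 3964093 to 28510118 counts (median 10717483), and Kcn genes took a median of 0.39% of the counts in IP118/PY115 PVN, 0.384% in vehicle PVN, 0.343% in IP118/PY115 ARC, 0.335% in vehicle ARC, 0.439% in IP118/PY115 NTS and 0.428% in vehicle NTS. Marker genes were checked against the dissected regions. The summed level of 4 NTS markers was 855 to 1226 CPM in IP118/PY115 NTS and 893 to 1276 CPM in vehicle NTS, against at most 2.89 CPM in any PVN or ARC library, and Hoxa5 alone was at most 0.106 CPM in any PVN or ARC library. That of 4 PVN markers was 10936 to 17360 CPM in IP118/PY115 PVN and 7961 to 20771 CPM in vehicle PVN. These markers were low in most other libraries but reached 263 CPM in an IP118/PY115 ARC library (group median 10.8), 451 CPM in a vehicle ARC library (group median 7.11) and 56.96 CPM in an IP118/PY115 NTS library (group median 3.23). Levels are CPM, counts scaled to library size, with TMM factors across all 59 libraries. Fold changes are log2, with the standard error (SE) from edgeR's quasi-likelihood fit, and FDR is the Benjamini-Hochberg adjusted p over all genes tested.

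A few libraries stood apart. The libraries deposited first in each group, numbered 1 here, lay towards the other treatment for some genes outside the family. Fosb, an immediate-early gene, stood at 0.857 CPM in IP118/PY115 NTS library 1, against 18.9 to 48.8 CPM in the other IP118/PY115 NTS libraries, and at 39.7 CPM in vehicle NTS library 1, against 0.141 to 2.70 CPM in the other vehicle NTS libraries. Zbtb16, a transcription factor gene, stood at 29.6 CPM in IP118/PY115 ARC library 1 and 49.2 CPM in vehicle ARC library 1, against 21.8 to 58.2 CPM in the other IP118/PY115 ARC libraries and 9.48 to 20.3 CPM in the other vehicle ARC libraries. Not every case was as plain: Fosb in vehicle ARC library 1 and Zbtb16 in IP118/PY115 ARC library 1 each lay inside the range of their own group. All libraries were kept under their labels, and treatment results are also given without those numbered 1. Since these libraries were doubted on genes that responded to treatment, larger differences without them are partly built in. IP118/PY115 ARC library 2 was the other outlying one, with 1471 CPM of the neuronal gene Snap25 and 877 CPM of the oligodendrocyte gene Mobp, against at most 786 and 257 CPM in the other IP118/PY115 ARC libraries.

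Per kb of exon, the most abundant member in vehicle NTS was Kcnj10, an inward rectifier best known from astrocytes, at 161 ± 26 CPM per kb (SD, n = 10), followed at a distance by Kcnc4 at 57.96 ± 2.6 CPM per kb (SD, n = 10), a fast-activating voltage-gated subunit. In vehicle PVN the order began with Kcnip4, a calcium-binding partner of the A-type channels, at 43.6 ± 7.1 CPM per kb (SD, n = 10), then Kcnj10 at 40.3 ± 5.3 and Kcna5, a delayed rectifier, at 37.8 ± 5.4. The spreads of these 3 overlapped. In vehicle ARC it began with Kcnj10 at 44 ± 7.8 CPM per kb (SD, n = 9), Kcnk2, a mechanically and lipid-gated leak channel, at 41.6 ± 2.6, and Kcna5 at 38.2 ± 4.3, again within each other's spread. Lower in these orders came Kcnd2, a pore subunit of the A-type current, at 34.2 ± 4.9 CPM per kb in vehicle PVN (SD, n = 10), Kcnf1, a modifier subunit, at 19.97 ± 3.4 CPM per kb in vehicle ARC (SD, n = 9), and Kcnn2, a small-conductance calcium-activated channel, at 9.24 CPM per kb in vehicle NTS.

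**Figure D1:**
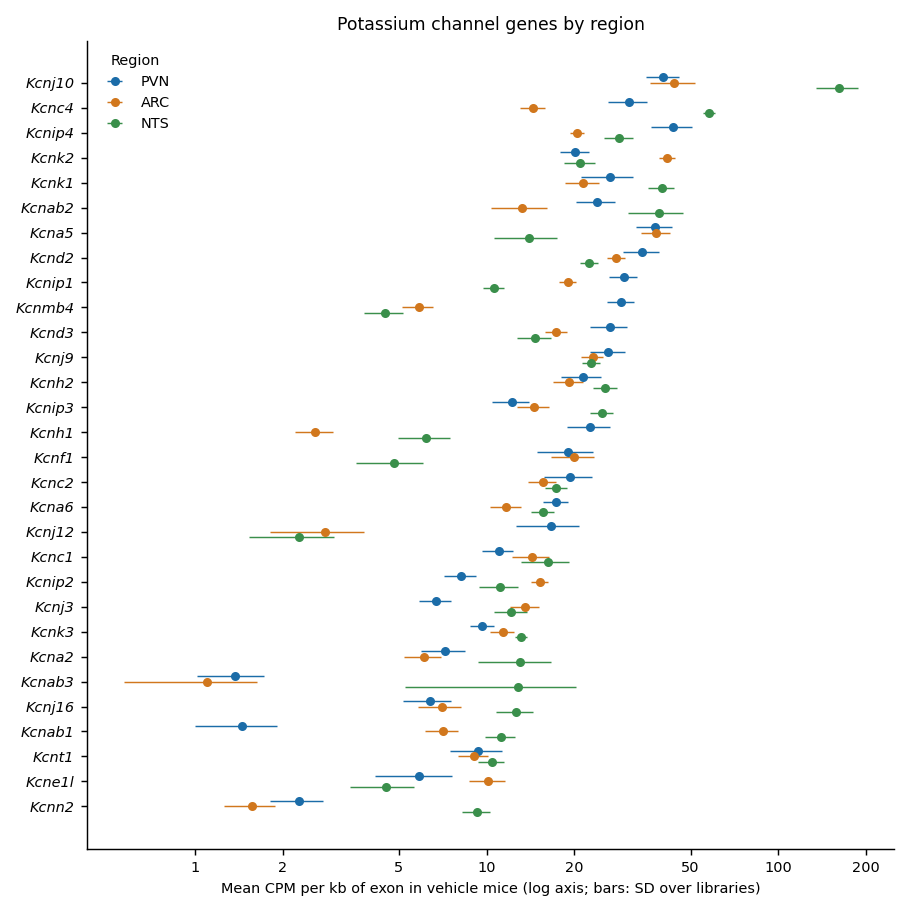
Mean level of 30 Kcn genes, among those with the highest value in any region, in CPM per kb of exon on a log axis, for vehicle PVN, ARC and NTS (bars: SD over 9 or 10 libraries). Kcnj10 in NTS, at 161 CPM per kb, stands to the right of every other point, and Kcnmb4, Kcnh1 and Kcnj12 are spread widest in favour of PVN.

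Summed over a class, inward rectifiers reached 112 ± 9 CPM per kb in vehicle PVN (SD, n = 10), 110 ± 12 in vehicle ARC (SD, n = 9) and 227 ± 28 in vehicle NTS (SD, n = 10), where Kcnj10 makes up most of the sum. Voltage-gated subunits summed to 298 ± 18, 228 ± 14 and 270 ± 13 CPM per kb in the same order of regions. Of the 94 genes, 54 averaged at least 10 CPM in some vehicle group and 18 at least 100 CPM. Another 18 stayed under 1 CPM on average in all 6 groups, among them Kcnk5, Kcnk15, Kcnk16 and Kcnk18 of the 2-pore class, Kcne1, Kcne2 and Kcne3 of the auxiliary class, Kcnj1, Kcnj13 and Kcnj15 of the inward rectifiers, and Kcnn4, the intermediate-conductance calcium-activated channel.

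Most of the channel genes differed between regions in vehicle mice. The low-count filter left 76 of the 94 for a joint fit of all 59 libraries. Vehicle PVN over vehicle ARC called 49 of the 76, against 46% of the 14379 genes tested. In detail, 27 were higher in PVN (24.8% of all genes) and 22 lower (21.1% of all genes). Vehicle PVN over vehicle NTS called 52 (background 56.1%), 23 of them higher (28.3%) and 29 lower (27.8%). Vehicle ARC over vehicle NTS called 56 (background 61.7%), 25 higher (30.2%) and 31 lower (31.5%). Their median log2 difference was 0.06, 0.01 and -0.05 in these 3 contrasts, beside 0.01, 0.00 and -0.01 over all genes. Against both other regions, 15 members were higher in PVN (10.8% of all genes) and 11 lower (7.97%), 13 were higher in ARC (13.5%) and 13 lower (15.5%), and 23 were higher in NTS (19.2%) and 14 lower (18.3%). Libraries of the 3 regions came from shared animals that the labels do not tie to libraries, so these tests take them as independent. The numbers in the library titles run in separate blocks by region, except 5553 to 5557, which are all vehicle libraries of PVN or ARC. What these numbers stand for is not given, and anything tied to the blocks cannot be told apart from region. In bulk tissue, fewer cells of a type and less RNA per cell cannot be told apart.

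Cell type markers moved with the regions. All 11 oligodendrocyte markers were lower in vehicle PVN than in vehicle NTS, and likewise in vehicle ARC (summed level 959 to 1384 CPM in vehicle PVN, 494 to 1353 in vehicle ARC and 2287 to 6974 in vehicle NTS). Of 9 astrocyte markers 8 were lower in vehicle PVN than in vehicle NTS and 9 of 9 in vehicle ARC, with sums of 2568 to 4465 CPM in vehicle PVN, 1960 to 2648 in vehicle ARC and 4890 to 7105 in vehicle NTS. All 6 endothelial and all 5 mural markers were higher in vehicle PVN than in vehicle ARC (endothelial sum 320 to 478 CPM in vehicle PVN, 79.6 to 122 in vehicle ARC and 160 to 221 in vehicle NTS). Of 9 neuronal markers, 6 were called higher and 2 lower in vehicle PVN than in vehicle ARC. Vehicle PVN over vehicle NTS called 3 higher and 5 lower, and vehicle ARC over vehicle NTS 2 higher and 7 lower. The summed neuronal level was 5220 to 6334 CPM in vehicle PVN, 4392 to 5080 in vehicle ARC and 5567 to 6947 in vehicle NTS. No marker of these lists was at 0 in all libraries of a group. Their part in the channel differences was not tested.

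Among voltage-gated pore subunits, Kcnh1, an ether-a-go-go channel, set PVN apart most. Its lowest, median and highest values were 114, 178 and 194 CPM in vehicle PVN, 15.4, 17.7 and 23.5 CPM in vehicle ARC and 32.9, 43.6 and 63.5 CPM in vehicle NTS. The 3 regions did not overlap in any library. The log2 difference was 3.14 ± 0.13 for PVN over ARC (SE, FDR = 2.0e-29) and 1.87 ± 0.12 for PVN over NTS (SE, FDR = 1.9e-21, edgeR). Kcnh1 lies at chr1:192190774-192510159 on the + strand (GRCm38).

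Kcnc4 was highest in NTS and lowest in ARC. It stood at 84.2, 110 and 142 CPM in vehicle PVN, 45, 52.6 and 61.7 CPM in vehicle ARC and 199, 213 and 226 CPM in vehicle NTS (lowest, median, highest), again without overlap. The log2 difference was 1.09 ± 0.08 for PVN over ARC, -0.92 ± 0.07 for PVN over NTS and -2.01 ± 0.08 for ARC over NTS (SE, FDR = 4.4e-32 for the last, edgeR). Its relative Kcnc1 was lower in PVN than in ARC (-0.38 ± 0.13, FDR = 0.014, edgeR) and than in NTS.

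Kcna5 was higher in both hypothalamic regions than in NTS. It stood at 81.6, 115 and 125 CPM in vehicle PVN, 99.9, 108 and 139 CPM in vehicle ARC and 24.6, 42.1 and 53.97 CPM in vehicle NTS. No vehicle NTS library reached the lowest of the PVN or ARC libraries. The log2 difference was 1.44 ± 0.12 for PVN over NTS and 1.45 ± 0.13 for ARC over NTS (SE, FDR = 3.3e-15 and 3.6e-15, edgeR), with -0.01 ± 0.12 for PVN over ARC, which was not called. Kcna1 and Kcna2, low-threshold subunits found along axons, were highest in NTS. Kcna2 averaged 85.6 ± 14.7 CPM in vehicle PVN (SD, n = 10), 72.6 ± 10.6 in vehicle ARC (SD, n = 9) and 154 ± 43 in vehicle NTS (SD, n = 10), and the log2 difference of ARC over NTS was -1.09 ± 0.22 for Kcna2 and -2.71 ± 0.58 for Kcna1 (SE). Kcna1 ran from 2.94 to 34.9 CPM within vehicle NTS.

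Kcnq3, Kcnd2 and Kcnd3 were higher in PVN than in either other region, each by less than 1 log2 unit. Kcnq3, an M-current subunit, averaged 105.5 ± 15.7 CPM in vehicle PVN, 64.03 ± 14.3 in vehicle ARC and 79.2 ± 8.46 in vehicle NTS (SD, n = 10, 9 and 10), a log2 difference of 0.72 ± 0.10 for PVN over ARC and 0.42 ± 0.10 for PVN over NTS (SE). For Kcnd2 the differences were 0.30 ± 0.06 and 0.61 ± 0.06, and for Kcnd3, another A-type pore subunit, 0.61 ± 0.09 and 0.85 ± 0.08, all called. Kcnh8, a slowly gating relative of Kcnh1, was higher in ARC than in PVN (PVN over ARC -1.15 ± 0.17) and than in NTS (ARC over NTS 1.34 ± 0.17), with a mean of 11.4 CPM in vehicle ARC.

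Modifier subunits split by region. Kcnf1 stood at 67.4, 92.3 and 130 CPM in vehicle PVN, 76.1, 92.3 and 125 CPM in vehicle ARC and 13.97, 22.2 and 37.5 CPM in vehicle NTS. The hypothalamic libraries were all above the NTS ones, by 2.00 ± 0.14 (PVN) and 2.06 ± 0.15 (ARC) on the log2 scale (SE, FDR = 3.6e-18 and 1.4e-18, edgeR). Kcng4 behaved in the opposite way, with a mean of 0.385 CPM in vehicle PVN, 1.66 CPM in vehicle ARC and 14.5 CPM in vehicle NTS, and log2 differences of -5.20 ± 0.63 for PVN over NTS and -3.08 ± 0.51 for ARC over NTS. Kcng1 was lower in PVN than in ARC (-1.56 ± 0.30), at 2.69 CPM in vehicle PVN and 7.85 CPM in vehicle ARC on average. Kcns2 was higher in PVN than in ARC (1.68 ± 0.18), with means of 13.4 CPM in vehicle PVN and 4.12 CPM in vehicle ARC. Kcnv1, a subunit silent on its own that treatment bears on below, showed no regional call among vehicle groups, at 10.0 ± 3.2 CPM in PVN, 10.1 ± 1.9 in ARC and 8.71 ± 2.5 in NTS (SD, n = 10, 9 and 10).

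Auxiliary subunits held some of the largest differences. Kcnmb4, the neuronal beta subunit of the large-conductance calcium-activated channel, stood at 82.4, 97.4 and 111 CPM in vehicle PVN, 16.3, 18.9 and 23.2 CPM in vehicle ARC and 12.8, 14.3 and 19.99 CPM in vehicle NTS. No library of PVN came near those of the other regions. The log2 difference was 2.31 ± 0.09 for PVN over ARC and 2.70 ± 0.09 for PVN over NTS (SE, FDR = 3.6e-32 and 1.4e-36, edgeR). The pore gene it serves, Kcnma1, showed no regional call, at 23.9 ± 3.7 CPM in vehicle PVN, 21.1 ± 5.1 in vehicle ARC and 22.2 ± 3.6 in vehicle NTS (SD, n = 10, 9 and 10; smallest FDR = 0.32).

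Kcnab1, a beta subunit of the Kcna channels, was low in PVN, with 8.04, 11.4 and 20.8 CPM in vehicle PVN, 49.3, 60.8 and 73.4 CPM in vehicle ARC and 79.9, 98.3 and 118 CPM in vehicle NTS. The regions did not overlap. PVN over ARC was -2.32 ± 0.11 and PVN over NTS -2.98 ± 0.10 (SE, FDR = 1.1e-28 and 7.6e-35, edgeR). Kcnab3 was higher in every vehicle NTS library than in any of PVN or ARC, at 36.6 ± 21.6 CPM in vehicle NTS (SD, n = 10) beside 3.92 ± 1.01 in vehicle PVN (SD, n = 10) and 3.15 ± 1.52 in vehicle ARC (SD, n = 9), with a span of 9.94 to 71.1 CPM among vehicle NTS libraries. The log2 difference was -3.24 ± 0.51 for PVN over NTS and -3.53 ± 0.53 for ARC over NTS. The A-type partners Kcnip1 and Kcnip4 were highest in PVN. For Kcnip1 the means were 183 ± 20 CPM in vehicle PVN (SD, n = 10), 118 ± 8 in vehicle ARC (SD, n = 9) and 65.7 ± 5.4 in vehicle NTS (SD, n = 10), 1.48 ± 0.06 for PVN over NTS. Kcnip4 was 1.09 ± 0.08 higher in PVN than in ARC and 0.62 ± 0.08 higher than in NTS.

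**Figure D2:**
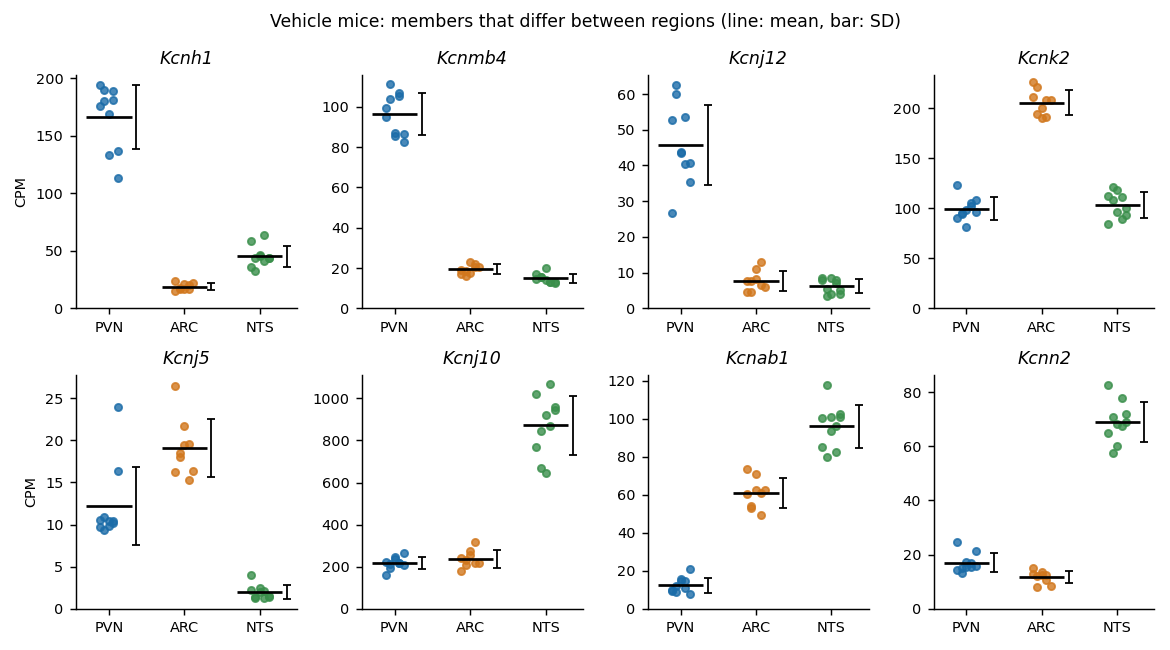
CPM of 8 Kcn genes in each vehicle library of PVN, ARC and NTS, with a line at the mean and a bar for the SD. Kcnh1, Kcnmb4 and Kcnj12 are high in PVN, Kcnk2 in ARC, and Kcnj10 and Kcnn2 in NTS, while Kcnab1 is low in PVN and Kcnj5 low in NTS.

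Inward rectifiers divided between the regions. Kcnj10 stood at 161, 218 and 263 CPM in vehicle PVN, 177, 230 and 320 CPM in vehicle ARC and 647, 895 and 1066 CPM in vehicle NTS. Every NTS library exceeded every PVN and ARC library, with log2 differences of -2.0 ± 0.11 (PVN over NTS) and -1.87 ± 0.11 (ARC over NTS) and FDR = 3.4e-24 and 1.9e-22 (edgeR). Kcnj16, which joins Kcnj10 in glial channels, followed the same direction at a lower level, with means of 25.1 CPM in vehicle PVN, 27.6 CPM in vehicle ARC and 49.7 CPM in vehicle NTS (PVN over NTS -0.99 ± 0.10). The astrocyte and oligodendrocyte marker sums given above were higher in NTS as well. For PVN over ARC, 8 of 9 astrocyte markers were positive and 5 called higher (median 0.38). There the median of Kcnj10 and the mean of Kcnj16 were slightly lower in PVN. The part of these cell types in the channel differences was not tested.

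Kcnj12, a strong inward rectifier, stood at 26.6, 43.5 and 62.5 CPM in vehicle PVN, 4.61, 7.65 and 12.9 CPM in vehicle ARC and 3.52, 6.33 and 8.53 CPM in vehicle NTS. PVN did not overlap with either region, and the log2 difference was 2.54 ± 0.22 over ARC and 2.86 ± 0.21 over NTS (SE, FDR = 2.0e-15 and 5.6e-18, edgeR). Its relative Kcnj4 was highest in ARC, with means of 2.12 ± 1.31 CPM in vehicle PVN (SD, n = 10), 8.83 ± 2.85 in vehicle ARC (SD, n = 9) and 0.943 ± 0.372 in vehicle NTS (SD, n = 10). For Kcnj4, PVN over ARC was -2.19 ± 0.30 and ARC over NTS 3.22 ± 0.31.

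Of the G protein-gated subunits, Kcnj5 was nearly restricted to the hypothalamic samples, with 9.38, 10.4 and 24 CPM in vehicle PVN, 15.3, 18.5 and 26.5 CPM in vehicle ARC and 1.26, 1.75 and 4.05 CPM in vehicle NTS. No NTS library reached the hypothalamic ones (ARC over NTS 3.27 ± 0.21, FDR = 2.3e-21, and PVN over NTS 2.63 ± 0.21, FDR = 4.7e-17, edgeR). Kcnj3, a partner in most of these channels, was lower in PVN than in ARC (PVN over ARC -1.02 ± 0.09) and than in NTS (-0.86 ± 0.08), at 35 ± 4.4 CPM in vehicle PVN, 70.9 ± 8.1 in vehicle ARC and 63.4 ± 8.0 in vehicle NTS (SD, n = 10, 9 and 10). Kcnj6 was higher in both hypothalamic regions than in NTS (PVN over NTS 1.13 ± 0.21, ARC over NTS 1.27 ± 0.21), and Kcnj9 was higher in PVN by 0.18 ± 0.06 over ARC and 0.19 ± 0.06 over NTS, both called.

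The pore genes of ATP-sensitive channels had lower counts. Kcnj11, the neuronal pore subunit, averaged 23.8 ± 5.0 CPM in vehicle PVN (SD, n = 10), 21.3 ± 2.9 in vehicle ARC (SD, n = 9) and 32.96 ± 5.5 in vehicle NTS (SD, n = 10), with PVN over NTS at -0.48 ± 0.11 and ARC over NTS at -0.64 ± 0.11, both called. Kcnj8, the vascular pore subunit, averaged 5.21 ± 2.33 CPM in vehicle PVN, 3.08 ± 1.02 in vehicle ARC and 4.79 ± 1.10 in vehicle NTS, with PVN over ARC at 0.74 ± 0.20 (FDR = 0.0014, edgeR). Of their receptor subunits, Abcc8 was higher in NTS than in PVN (PVN over NTS -0.47 ± 0.10) and higher in PVN than in ARC (0.40 ± 0.10), both called. Abcc9, known from vascular mural cells, was higher in PVN than in ARC by 1.35 ± 0.16. For PVN over NTS it was -0.29 ± 0.14, not called. The 5 mural markers were higher in PVN than in ARC as well, but all 5 were also positive for PVN over NTS, 3 of them called (median 0.52).

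Leak channels were led by Kcnk2 in ARC, at 81.5, 97.6 and 124 CPM in vehicle PVN, 190, 208 and 226 CPM in vehicle ARC and 84.3, 104 and 121 CPM in vehicle NTS. Every ARC library lay above every PVN and NTS library, while PVN and NTS overlapped (PVN over ARC -1.04 ± 0.07, FDR = 5.4e-20, ARC over NTS 0.99 ± 0.07, FDR = 2.1e-19, PVN over NTS -0.05 ± 0.07, edgeR). The halothane-inhibited channels Kcnk13 and Kcnk12 were highest in ARC too. Kcnk13, in the brain best known from microglia, averaged 3.78 ± 1.18 CPM in vehicle PVN (SD, n = 10), 15.8 ± 2.0 in vehicle ARC (SD, n = 9) and 9.51 ± 2.32 in vehicle NTS (SD, n = 10), a log2 difference of -2.12 ± 0.15 for PVN over ARC, and the 7 microglial markers beside it had a median of -0.20 there, 1 of them called. Kcnk12 was -1.26 ± 0.21 for PVN over ARC. Kcnk1, a weakly rectifying leak channel, was highest in NTS, with means of 59.1 ± 11.99 CPM in vehicle PVN (SD, n = 10), 47.9 ± 6.3 in vehicle ARC (SD, n = 9) and 89.1 ± 9.3 in vehicle NTS (SD, n = 10).

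Kcnn2 was the calcium-activated member with the largest called differences, at 13.2, 15.7 and 24.7 CPM in vehicle PVN, 8.08, 12.4 and 15.2 CPM in vehicle ARC and 57.4, 68.6 and 82.6 CPM in vehicle NTS. NTS libraries were all above the others (PVN over NTS -2.01 ± 0.11, FDR = 1.8e-24, ARC over NTS -2.54 ± 0.12, FDR = 2.1e-28, edgeR). Kcnn3, another small-conductance channel, was highest in ARC by a small margin, with means of 48.7 CPM in vehicle PVN, 62.1 CPM in vehicle ARC and 44.5 CPM in vehicle NTS (PVN over ARC -0.35 ± 0.08, ARC over NTS 0.48 ± 0.07). Besides Kcnma1 and Kcnv1, members with no regional call included Kcnd1, Kcnh6, Kcnk9, Kcnt1 and Kcnt2.

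Among 16 genes whose proteins join or traffic these channels, 13 passed the filter. Vehicle PVN over vehicle ARC called 9 of them higher and 3 lower, PVN over NTS 5 higher and 4 lower, and ARC over NTS 5 higher and 5 lower. Dpp6, which speeds the A-type channels, was higher in PVN by 0.42 ± 0.06 over ARC and 0.42 ± 0.05 over NTS, as were Kcnd2 and Kcnip1, whereas its relative Dpp10 was lower in PVN (-0.33 ± 0.07 and -0.70 ± 0.07). Lrrc55, which shifts activation of large-conductance calcium-activated channels, was 1.45 ± 0.08 higher in PVN than in NTS. None of the 13 was called for treatment in any region (smallest FDR = 0.329, Abcc9 in PVN).

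The regional contrasts were repeated in treated mice. IP118/PY115 PVN over IP118/PY115 ARC called 48 (background 48.7%), IP118/PY115 PVN over IP118/PY115 NTS 53 (58.8%) and IP118/PY115 ARC over IP118/PY115 NTS 57 (63.8%). Of the vehicle calls, 42 of 49, 49 of 52 and 53 of 56 were called in the same direction in treated mice, and none in the opposite one; over all genes, 81.7%, 87.2% and 89.5% of the vehicle calls were also called in the same direction. Treated and vehicle libraries are separate in these contrasts. Without IP118/PY115 ARC library 2 the treated counts were 51 (background 50%), 54 (59.2%) and 59 (64.5%).

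Several channel genes stood apart in that library. Kcnab3 stood there at 74.8 CPM, against 2.52 to 7.65 CPM in the other IP118/PY115 ARC libraries and 1.84 to 6.60 CPM in vehicle ARC. Kcng4 stood at 37.4 CPM, against at most 3.53 CPM in the other IP118/PY115 ARC libraries, and Kcna1 at 47.6 CPM, against at most 9.58 CPM. Kcna2 stood at 354 CPM, against 59.6 to 108.5 CPM in the other IP118/PY115 ARC libraries. Of the 71 members tested in ARC, 10 were more than 2-fold above the median of the other 18 ARC libraries (3.69% of all genes tested) and 1 was more than 2-fold below it (1.03%). With this library, IP118/PY115 PVN over IP118/PY115 ARC gave -1.69 ± 0.51 for Kcnab3 (SE, FDR = 0.0049, edgeR), and without it -0.31 ± 0.39 (SE, FDR = 0.53). Oligodendrocyte markers were high there, as the Mobp value above shows. Its Hoxa5 was at 0.106 CPM, against 300 to 428 CPM of Hoxa5 in IP118/PY115 NTS, and its Agrp, a marker of ARC neurons, was at 286 CPM, below the 395 to 763 CPM of the other IP118/PY115 ARC libraries.

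**Figure D3:**
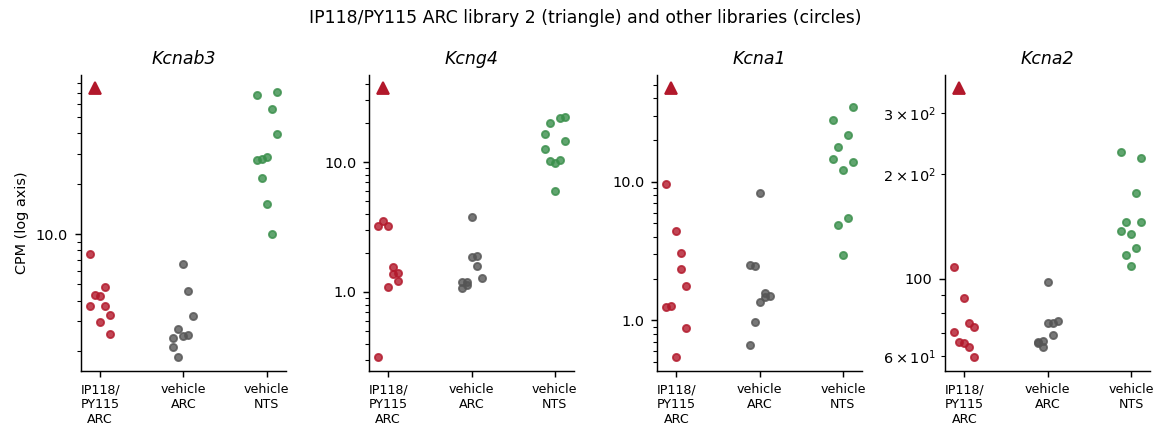
CPM on a log axis of Kcnab3, Kcng4, Kcna1 and Kcna2 in each library of IP118/PY115 ARC, vehicle ARC and vehicle NTS. The triangle is IP118/PY115 ARC library 2, which lies above all other ARC libraries for these 4 genes, and above the vehicle NTS range for each.

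Few channel genes were called for treatment when all libraries were kept. In PVN, 73 members were tested and 2 rose with IP118/PY115, against 0.656% of 13409 genes called and 0.529% called higher. These were Kcnv1 and Kcna5. At an unadjusted p under 0.05 there were 21 of the 73 (13 higher, 8 lower), against 9.34% of all genes. The median log2 fold change of the 73 was -0.03, beside -0.02 over all genes. The modifier subunits had the highest class median, 0.31 over 7 tested, with 1 called.

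Kcnv1 is located at chr15:45106284-45114920 on the - strand (GRCm38). It stood at 14.2, 17.5 and 21.5 CPM in IP118/PY115 PVN, against 5.66, 9.07 and 17.2 CPM in vehicle PVN (lowest, median, highest, n = 10 each). All 10 treated libraries lay above the vehicle median and 5 above every vehicle library, and the groups overlapped. The log2 fold change was 0.84 ± 0.14 (SE, FDR = 0.0046, edgeR). It was called in each of 20 fits that left out 1 library, and at 0.90 ± 0.15 (FDR = 0.00034) without the libraries numbered 1. In ARC the change was 0.22 ± 0.17 and in NTS -0.05 ± 0.15, neither called.

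Kcna5 stood at 96.3, 142 and 165 CPM in IP118/PY115 PVN, against 81.6, 115 and 125 CPM in vehicle PVN. Of the treated libraries 9 exceeded every vehicle library, and library 1 was below the vehicle median. The log2 fold change was 0.36 ± 0.08 (SE, FDR = 0.0365, edgeR). This call was held in 6 of 20 fits that left out 1 library (FDR = 0.0017 to 0.10), and ended with the logarithm of the library total as a covariate (0.33, FDR = 0.17), with oligodendrocyte and astrocyte scores as covariates (0.24, FDR = 0.0501), and without the vehicle libraries whose titles carry the numbers 5553 to 5557 (0.31, FDR = 0.12). Calls over all genes fell there as well, from 88 to 6, 44 and 12 in the same order. Without the libraries numbered 1 the Kcna5 fold change was 0.44 ± 0.07 (FDR = 0.00043), and the groups did not overlap. All 9 astrocyte markers were nominally lower in IP118/PY115 PVN than in vehicle PVN, none called (median -0.12, summed level 2581 to 3117 CPM in IP118/PY115 PVN, 2568 to 4465 CPM in vehicle PVN).

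Kcnk1 and Kcnn2 missed the threshold by edgeR in each region but had the same sign and an unadjusted p under 0.05 in all 3. They were the only ones to do so of the 69 members tested in every region. The share of all genes that did so was not computed. Because the 3 regions came from shared animals, their results are not independent of each other. In PVN, Kcnk1 stood at 58.4, 76.9 and 86.5 CPM with IP118/PY115, against 46.7, 57.7 and 87.6 CPM with vehicle. The lowest treated and the highest vehicle value were both those of library 1. In ARC it stood at 49.3, 57.03 and 70.6 CPM with IP118/PY115, against 40.2, 47 and 57.3 CPM with vehicle, and in NTS at 80.4, 111 and 135 CPM with IP118/PY115, against 71.8, 89.7 and 103 CPM with vehicle. Of treated libraries 10 of 10, 10 of 10 and 9 of 10 lay above the vehicle median of their region. The log2 fold change of Kcnk1 was 0.36 ± 0.09 in PVN (FDR = 0.066), 0.28 ± 0.08 in ARC (FDR = 0.20) and 0.31 ± 0.08 in NTS (FDR = 0.17, SE and edgeR throughout).

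Kcnn2 stood at 14.5, 24.5 and 29.1 CPM in IP118/PY115 PVN, against 13.2, 15.7 and 24.7 CPM in vehicle PVN, and at 9.30, 16.9 and 20.8 CPM in IP118/PY115 ARC, against 8.08, 12.4 and 15.2 CPM in vehicle ARC. In NTS it stood at 64.9, 78.6 and 89.3 CPM with IP118/PY115, against 57.4, 68.6 and 82.6 CPM with vehicle. The groups overlapped in all regions. Its log2 fold change was 0.47 ± 0.12 in PVN (FDR = 0.063), 0.46 ± 0.14 in ARC (FDR = 0.26) and 0.19 ± 0.07 in NTS (FDR = 0.44, edgeR).

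Promoter windows are shown for Kcna5, called for treatment in PVN, and for Kcnk1, which edgeR with all libraries called for treatment in no region. Those of Kcnh1, the member that most set PVN over ARC apart, and of Kcnj10, the most abundant per length in NTS, are shown too. Each is the 250 bases before the RefSeq transcription start (GRCm38.p6), read 5′ to 3′ on the gene's strand. They lie at chr6:126535556-126535805 on the - strand for Kcna5, chr8:125994852-125995101 on the + strand for Kcnk1, chr1:192190527-192190776 on the + strand for Kcnh1 and chr1:172340960-172341209 on the + strand for Kcnj10. The RefSeq start lies 143 bases before the GENCODE gene start for Kcna5 and 68 bases before it for Kcnk1. The bases just after the RefSeq start matched a GENCODE transcript of the gene for Kcnh1 and Kcnj10 but not for Kcna5 and Kcnk1. The table matched 69 of the 94 members, Kcnv1 and Kcnn2 not among them. Capitals mark the 1 motif match found.
Kcna5: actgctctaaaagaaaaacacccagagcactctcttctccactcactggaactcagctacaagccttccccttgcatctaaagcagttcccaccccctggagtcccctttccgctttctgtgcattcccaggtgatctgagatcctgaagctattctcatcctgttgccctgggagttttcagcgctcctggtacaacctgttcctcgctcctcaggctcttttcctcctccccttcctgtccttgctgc
Kcnk1: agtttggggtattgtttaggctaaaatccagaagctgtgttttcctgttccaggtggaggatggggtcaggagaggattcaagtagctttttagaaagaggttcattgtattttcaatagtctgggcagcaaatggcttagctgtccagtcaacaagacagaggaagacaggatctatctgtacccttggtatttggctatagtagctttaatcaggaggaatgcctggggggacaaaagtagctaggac
Kcnh1: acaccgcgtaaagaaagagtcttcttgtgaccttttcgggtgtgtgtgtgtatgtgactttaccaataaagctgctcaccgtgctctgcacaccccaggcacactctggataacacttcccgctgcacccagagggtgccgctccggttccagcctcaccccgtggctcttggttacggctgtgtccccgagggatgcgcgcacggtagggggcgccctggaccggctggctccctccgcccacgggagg
Kcnj10: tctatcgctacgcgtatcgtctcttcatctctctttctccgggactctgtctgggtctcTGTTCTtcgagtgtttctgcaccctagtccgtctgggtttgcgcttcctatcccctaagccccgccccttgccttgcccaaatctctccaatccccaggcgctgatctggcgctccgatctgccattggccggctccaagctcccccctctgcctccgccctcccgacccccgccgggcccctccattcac

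The windows were searched on both strands for 5 motifs of factors that act within hours of a stimulus. None of the 4 windows held the cAMP response element TGACGTCA (present in 1.55% of 32851 mouse windows of this length), its shorter core TGACG, which lies within the full element (17.8%), the AP-1 site TGANTCA (6.75%) or the palindromic glucocorticoid response element (0.00913%). The shorter glucocorticoid motif AGAACA, contained in the palindrome and present in 16.1% of windows, matched the Kcnj10 window on the opposite strand at bases -191 to -186 from the start. The 69 genes had 94 windows, of which 15 held TGACG, 4 the AP-1 site and 13 AGAACA. The shares above are per window too. Counted by gene, 15 of 69 held TGACG, 4 the AP-1 site and 11 AGAACA, which is not comparable with those shares. These are matches of letters only.

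**Figure D4:**
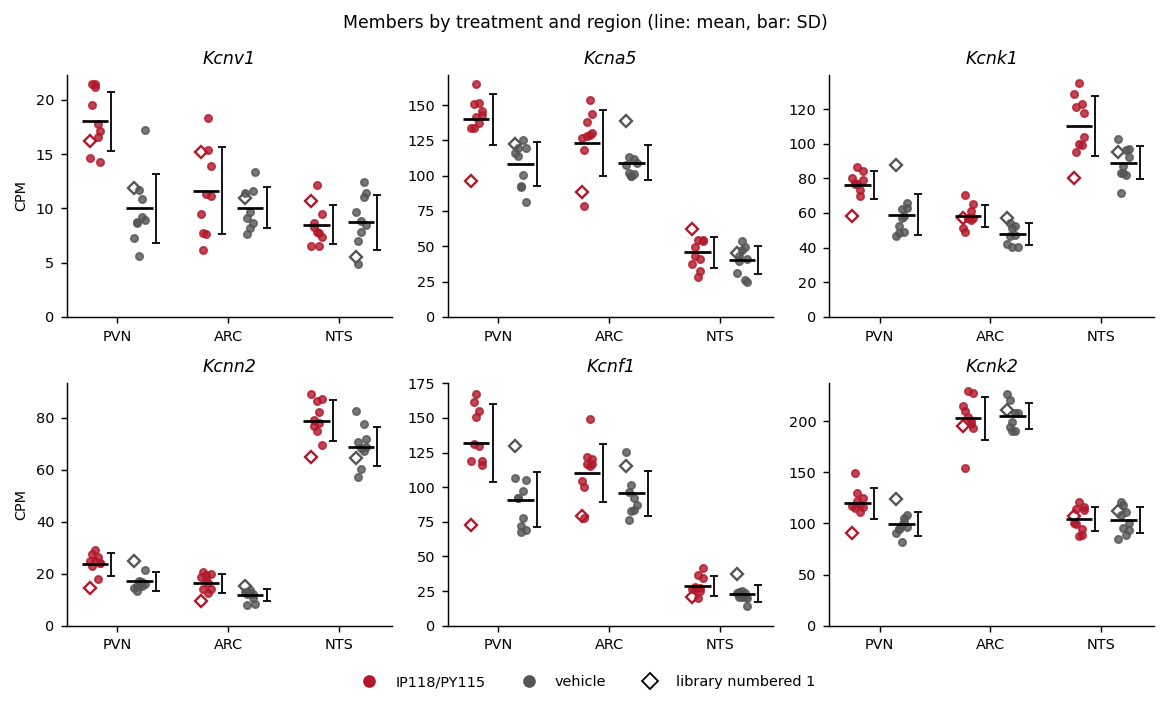
CPM of Kcnv1, Kcna5, Kcnk1, Kcnn2, Kcnf1 and Kcnk2 in each library, IP118/PY115 left of vehicle within each region, with a line at the mean and a bar for the SD. Open diamonds are the libraries numbered 1. In PVN the IP118/PY115 diamond is among the lowest and the vehicle diamond among the highest for Kcnk1, Kcnn2, Kcnf1 and Kcnk2, while for Kcnv1 both lie inside their groups.

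In ARC, 0 of 71 members and 0 of 13484 genes were called (0.00%) by edgeR's quasi-likelihood test. At an unadjusted p under 0.05 there were 13 members (8 higher, 5 lower), beside 7.20% of all genes. DESeq2 called 1 member (background 0.329%), Kcng1. This modifier subunit stood at 4.02, 5.21 and 6.69 CPM in IP118/PY115 ARC, against 5.99, 8.17 and 10.5 CPM in vehicle ARC. All 10 treated libraries were below the vehicle median, and the log2 fold change was -0.58 ± 0.14 (FDR = 0.13, edgeR). Kcnk10, a relative of Kcnk2, stood at a median of 15.7 CPM in IP118/PY115 ARC and 20.9 CPM in vehicle ARC (-0.34 ± 0.10, FDR = 0.25, edgeR). All 11 oligodendrocyte markers were nominally higher in IP118/PY115 ARC, none called, with a median log2 fold change of 1.01. Their summed level was 507 to 6037 CPM in IP118/PY115 ARC (median 976) and 494 to 1353 CPM in vehicle ARC (median 817). The 6037 CPM was that of IP118/PY115 ARC library 2, and the other 9 IP118/PY115 ARC libraries lay between 507 and 2161 CPM, with a median of 758. Without library 2 the median log2 fold change of these markers was 0.33. The fit with oligodendrocyte and astrocyte scores as covariates called 0 members in ARC and 6 of 13484 genes. Since 0 members were called without the scores as well, that fit cannot show the part of these markers, which was not tested. Kcnab3 and Kcng4, at 1.81 ± 0.71 and 1.66 ± 0.77 in ARC, were 0.39 ± 0.24 and 0.16 ± 0.33 without IP118/PY115 ARC library 2.

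In NTS, 0 of 73 members and 0 of 13696 genes were called (0.00%, edgeR). At an unadjusted p under 0.05 there were 7 members (4 higher, 3 lower), beside 5.80% of all genes, and DESeq2 called 1 member, Kcnk1 (background 0.363%). After Kcnk1 and Kcnn2 the smallest p-values were those of Kcnt1, a sodium-activated channel, at a median of 112 CPM with IP118/PY115 and 99.0 CPM with vehicle (0.21 ± 0.07, FDR = 0.44, edgeR), and of Kcna4, a rapidly inactivating voltage-gated subunit, at 25.3 CPM with IP118/PY115 and 27.3 CPM with vehicle (-0.22 ± 0.09, FDR = 0.68, edgeR). All 9 leak channels tested in NTS had a positive fold change, as did 50 of the 73 members. Their class median was 0.11, and 1 had an unadjusted p under 0.05. The calcium- and sodium-activated class (0.16) and the modifier class (0.15) had higher medians. Over the 73 members the median was 0.07, beside 0.0005 over all genes.

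The count in PVN depended on the method and on the libraries numbered 1. DESeq2 called 8 members in PVN (background 1.15%), all higher: Kcnv1, Kcnf1, Kcna5, Kcnn2, Kcng2, Kcnk1, Kcnj3 and Kcnk2. Without the libraries numbered 1, edgeR called 12 members in PVN (background 3.22%), 4 in ARC (background 1.14%) and 1 in NTS (background 1.18%). The 12 were those 8 and Kcnh1 among the higher ones, and Kcnj10, Kcnn3 and Kcnj4 among the lower ones. In that fit Kcnf1 changed by 0.68 ± 0.10 (SE, FDR = 0.00012), Kcnk1 by 0.49 ± 0.07 (FDR = 6.5e-05) and Kcnj3 by 0.42 ± 0.09 (FDR = 0.0040, edgeR). Kcnj10 changed by -0.28 ± 0.06 (FDR = 0.0040) and stood at 167 to 206 CPM in the other IP118/PY115 PVN libraries, against 192 to 263 CPM in the other vehicle PVN libraries. Without these libraries, 4 members did not overlap between treatments in PVN (0.697% of all genes tested), namely Kcna5, Kcnf1, Kcnk1 and Kcnk2, 1 in ARC (0.275%), namely Kcng1, and 0 in NTS (0.422%). With all libraries the 2 treatments overlapped for every member tested in each region (genes without overlap: 0.00746% of those tested in PVN, 0.00% of those in ARC and 0.00% of those in NTS). In ARC the 4 were Kcnk1 and Kcnn2, higher, and Kcng1 and Kcnk10, lower, and in NTS the 1 was Kcnk1 (0.36 ± 0.07, FDR = 0.0096, edgeR).

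**Figure D5:**
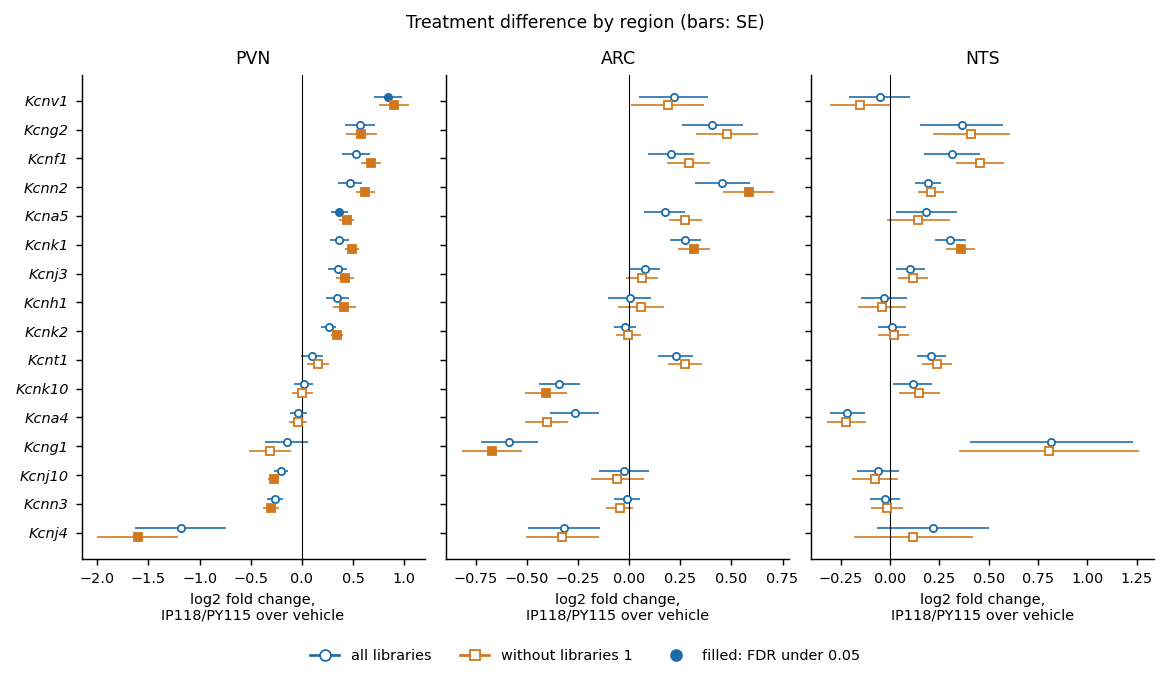
Log2 fold change of IP118/PY115 over vehicle with its SE in PVN, ARC and NTS for 16 Kcn genes, with all libraries (blue circles) and without those numbered 1 (orange squares), on a separate axis for each region. Filled symbols have an FDR under 0.05, which with all libraries holds for Kcnv1 and Kcna5 in PVN alone.

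The treatment effect was compared between regions in the joint fit. No member differed for PVN minus ARC (all genes 0.0487%), PVN minus NTS (0.0904%) or ARC minus NTS (0.00%) by edgeR, and none by DESeq2, where 0.0838%, 0.0995% and 0.0157% of all genes were called. At an unadjusted p under 0.05 there were 13, 12 and 7 of the 76 members, beside 6.21%, 4.28% and 3.76% of all genes. The smallest p-values were those of Kcnab1, Kcnk2 and Kcnv1 for PVN minus ARC, and of Kcnv1, Kcnj4 and Kcnk3 for PVN minus NTS. For ARC minus NTS they were those of Kcng1, Kcnk10 and Kcng4. Without IP118/PY115 ARC library 2, the ARC minus NTS value of Kcng4 was 0.02. For Kcnv1 the effect in PVN minus that in NTS was 0.90 ± 0.23 (FDR = 0.14, edgeR), and 1.05 ± 0.24 (FDR = 0.018) without the libraries numbered 1, the only member called in that fit. For PVN minus NTS that fit called 62 of 14364 genes, against 13 of 14379 with all libraries. For Kcng1 the effect in ARC minus that in NTS was -1.40 ± 0.38 (FDR = 0.53, edgeR), with IP118/PY115 NTS library 9 at 47.5 CPM beside 3.20 to 13.2 CPM in the other IP118/PY115 NTS libraries.

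Reads of overlapping genes may be mixed into some of these counts, since the strand setting of the counting is not given. Exons of other genes on the opposite strand overlap those of Kcnmb4 (Kcnmb4os1 and Kcnmb4os2), Kcnab3 (Kcnab3os), Kcnd3 (Kcnd3os) and Kcnq1 (Kcnq1ot1), and further annotated genes overlap Kcnk1, Kcnk2, Kcnn2 and Kcnj3, among others. Kcnk4 shares 572 bases of exon with Catsperz on its own strand.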

How the data were processed

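PolyA RNA of 59 laser-captured samples was sequenced from a stranded kit. Unnormalised counts for each Ensembl ID were deposited by the authors; per the submitters' processing notes, bcl2fastq 2.20.0.422, STAR 2.5.2a and GRCm38 were used. The counter, strand setting and annotation release are not given in the sources used here. IDs were named with GENCODE M21 (21858 of 21935 matched). The members, lists and tests were chosen with earlier results of these data known, including the libraries numbered 1 (numbers follow deposit order). Each animal gave 1 piece per region, but the labels do not tie libraries to animals.

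For treatment, each region was fitted alone; a joint fit with 6 group means gave region contrasts and differences of treatment effects. Both used edgeR 4.0.16 in R 4.3.3 with filterByExpr (minimum count 10, total 15), TMM and the robust quasi-likelihood test, two-sided, called at FDR under 0.05. The test was tested on simulated counts. DESeq2 1.42.0 was an alternative. Named genes were, per treatment comparison, called members or, with fewer than 4 called, the 4 smallest p-values; per vehicle contrast and direction, the 6 largest called differences with at least 5 CPM; per difference of effects, called members or the 3 smallest p-values; and a list of channel genes. Kcnf1, Kcng2, Kcnh1, Kcnj3, Kcnj10 and Kcnn3 in the fits without libraries 1, and Fosb and Zbtb16, were named after their values were seen. Library totals of 3964093 to 28510118 counts limit precision for members of a few CPM. Some items the rule would name are not reported here.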

Additional observations from a re-analysis of the deposited data

Results flagged for a closer look

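A library was listed here when its gap to the nearest other library of its group, relative to the group's whole range, exceeded Dixon's 95% critical value. For 28 named members, 22 of 168 groups were listed, where chance lists about 1 in 20. IP118/PY115 ARC library 2 accounted for 4, with Kcna1 at 47.6 CPM, Kcnab3 at 74.8 and Kcng4 at 37.4 above the others, and Kcnk2 at 154 below them.

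Among other IP118/PY115 libraries, Kcna5 stood low in PVN library 1 at 96.3 CPM and Kcnk12 high in PVN library 8 at 5.76 CPM. Kcnk3 stood low in ARC library 7 at 34.5 CPM. In NTS, Kcng1 at 47.5 CPM and Kcnj12 at 17.1 CPM stood high in library 9, Kcnk13 in library 6 at 14.2 CPM and Kcnt1 in library 8 at 157 CPM.

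Among vehicle PVN libraries, Kcnk1 stood high in library 1 at 87.6 CPM, Kcnk13 in library 3 at 6.64, Kcnj5 in library 5 at 24 and Kcnip4 in library 10 at 223 CPM. Among vehicle ARC libraries, Kcna1 at 8.27 CPM and Kcng4 at 3.79 CPM stood high in library 8, and in library 1 Kcna5 stood high at 139 CPM and Kcnk3 low at 35.95 CPM. Among vehicle NTS libraries, Kcnf1 at 37.5 CPM and Kcnj5 at 4.05 CPM stood high in library 1 and Kcnt1 in library 7 at 123 CPM.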

How the results depend on the processing

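The number of Kcn genes called in PVN for treatment, 2 with all libraries, was 8 with DESeq2, 8 at FDR under 0.1, 12 without the libraries numbered 1, and 1 each with the logarithm of the library total as a covariate, with oligodendrocyte and astrocyte scores as covariates, and without vehicle libraries 5553 to 5557. Calls over all genes moved too, from 88 of 13409 to 206 of 17884 with DESeq2, 175 at FDR under 0.1 and 429 without the libraries numbered 1. They fell to 6 with the library total, 44 with the marker scores and 12 without vehicle libraries 5553 to 5557. Leaving out 1 library at a time gave 1 to 8 Kcn genes in PVN (8 without library 1 of either group, 5 without vehicle library 10), 0 to 2 in ARC (2 without library 1 of either group) and 0 to 1 in NTS (1 without IP118/PY115 library 1). All-gene counts of the fits that left out 1 library are not given here. Against 0 with all libraries, ARC gave 1 with DESeq2 and 4 without the libraries numbered 1, and NTS gave 1 under each of these. Over all genes the same 2 alternatives called 59 and 153 in ARC and 67 and 162 in NTS, against 0 in each region. The difference of treatment effects in PVN minus NTS called 1 member without the libraries numbered 1, against 0 (over all genes 62, against 13). The cause was not tested. The counts of the vehicle and treated region contrasts stayed within 1.5 times under every alternative run. For each gene in the comparison it was named for, no direction reversed: 658 values kept their side of the threshold, 25 passed it under an alternative and 17, all of Kcna5 in PVN, no longer did. Named for other regions, Kcng1 in PVN, not called at -0.15, was 0.05 without vehicle libraries 5553 to 5557, and Kcnt1 in PVN, not called at 0.10, was -0.02 with the marker scores and -0.0020 without those libraries. No paired analysis was possible because the labels give no replicate numbers and do not tie libraries to animals. The joint fits without IP118/PY115 ARC library 2, and those of treated contrasts and effect differences without vehicle libraries 5553 to 5557, were chosen after seeing the data. Members under about 1 CPM rest on few counts, so that small differences there were not detectable.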
